A study of Mus musculus with 12 samples.

Results

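Apolipoproteins are the protein parts of the lipoprotein particles that carry lipids in the blood, and the liver makes most of them. The 10 apolipoprotein genes described here are Apoa1, Apoa2, Apoa4, Apoa5, Apob, Apoc1, Apoc3, Apoe, Apoh and Apom, out of 14188 genes in the table of protein-coding transcripts. They were chosen by name, together with all of their transcripts in that table, which are 32 of 29883. The expression of a gene is the sum of the FPKM (fragments mapped to a transcript, divided by its length and by the size of the library) of its transcripts.

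Liver RNA was sequenced from 12 mice, 6 of the PZH group and 6 of the control group, in the eighth week of the experiment. The mice of both groups were injected with CCl4, a solvent that injures hepatocytes and leads to hepatic fibrosis, in corn oil into the peritoneum 2 times per week. The PZH group was also given PZH (Pien Tze Huang, a traditional Chinese medicine) into the stomach every day, and the control group was given double distilled water in its place. The methods describe the mice as male C57BL/6J that were 6 weeks old when obtained, before the experiment, while the sample labels give the strain as C57BL/8. None of the sequenced livers came from a mouse without CCl4, so each value below compares 2 groups of injured livers and gives no level for a healthy liver.

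Lipoproteins form along connected routes. Apob is the large structural protein on which the liver assembles triglyceride-rich particles, with the help of the transfer protein Mttp, and it stays with the particle until the liver takes it up again. Apoa1 and Apoa2 are the main proteins of high-density lipoprotein (HDL), which takes up cholesterol from tissues, and Apom is a minor HDL protein that carries sphingosine-1-phosphate. Apoa5, Apoc1 and Apoc3 exchange between particles and act on how fast lipoprotein lipase removes their triglyceride, Apoe is a ligand for uptake by receptors, Apoa4 is linked to triglyceride secretion, and Apoh is a plasma glycoprotein that binds phospholipids.

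The livers held the RNA of all 10 genes at high levels, and the genes that differed between the groups were higher in the PZH group. Apom, Apoa2 and Apoc1 rose with adjusted p below 0.05 (limma on log2(FPKM + 1), Benjamini-Hochberg adjustment over the 14188 genes, used for every adjusted p of a gene below), by 1.48-fold, 1.27-fold and 1.23-fold in the mean FPKM. None of the 10 passed in the lower direction by limma (1 had an unadjusted p below 0.05), and Apoa4 had the only lower mean, at 1.48 times as high in the control group as in the PZH group without passing. Of all genes 12.7% were called higher and 32.1% were called lower, so a share of 3 in 10 called higher stands beside 12.7%, and 0 in 10 called lower stands beside 32.1%. The study's criteria, a 2-fold change with an unadjusted P below 0.05, were applied there to single transcripts. On sums over a gene they were met by 0 of the 10 genes, against 1.52% of all genes higher and 2.5% lower. The median log2 fold change (PZH minus control, here and below) was 0.21 over the 10 genes and -0.11 over all genes.

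Highly expressed genes as a whole leaned less to the lower side than the rest of the table. The 10 genes ranked from 9 (Apoa2) to 515 (Apom) of 14188 by mean FPKM. Among the 515 genes with a mean FPKM at least that of Apom, 31.3% were called higher and 24.1% lower, and their median log2 fold change was 0.03. A share of 3 in 10 called higher is therefore near that of genes at or above the level of Apom, the lowest member. Beside the same set stand 0 in 10 called lower and a median log2 fold change of 0.21 over the 10 genes. The set was not matched to the level of each member.

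**Figure D1:**
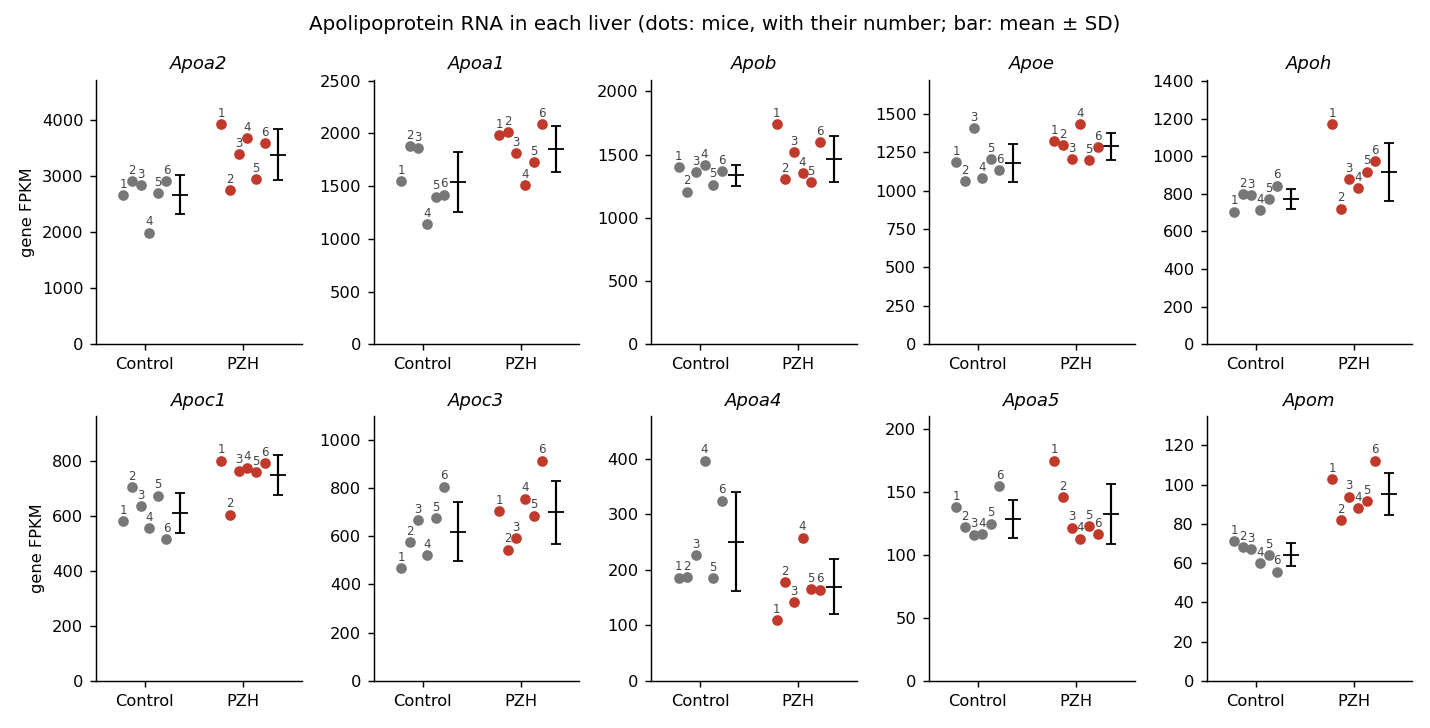
Gene FPKM (vertical axis, linear, from 0) of the 10 apolipoprotein genes in each of 6 control and 6 PZH mice, with the mean and SD of each group as the bar to the right and the number of each mouse above its dot. Apom is the 1 gene whose groups do not overlap, from 55.7 to 71.0 FPKM in the control group and from 81.8 to 112 in the PZH group, and Apoa4 has its 2 highest values in control mice 4 and 6.

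Apom had the clearest difference. It lies on chromosome 17 (GRCm38, 35128997 to 35132050, minus strand) and the table lists 1 transcript of it with 6 exons, Apom-201 (ENSMUST00000025249). Its expression ranged from 55.7 to 71.0 FPKM in the control group, with a median of 65.6, and from 81.8 to 112 FPKM in the PZH group, with a median of 92.8. Every PZH mouse was above every control mouse, and 6.46% of all genes were separated in this way in the same direction and 17.9% in the other, where none of the 10 members was. The mean rose from 64.4 ± 5.72 (SD, n = 6) to 95.2 ± 10.9 (SD, n = 6), a log2 fold change of 0.55 (SE 0.09) with an adjusted p of 0.000262 by limma. A two-sided exact permutation test over all ways to label 6 of the 12 mice as PZH gave p = 0.0022, the smallest it can give. Among genes ranked by mean FPKM within a group, Apom stood at 617 in the control group and at 438 in the PZH group.

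Sequence in front of the start site is shown for the gene that rose most, for the most abundant gene that rose, and for the gene with the lower mean, since transcription factors that act on these genes were themselves measured and are described below. The sequences are RefSeq promoter windows of GRCm38.p6, which were found for 8 of the 10 genes and not for Apoc1 and Apoc3. Capitals mark matches on either strand to AGGTCA or GGGTCA (half-sites bound by nuclear receptors), GTTAAT (a half-site of HNF1), CACGTG (an E-box) or TATAAA (the TATA box). The stretch of Apom is chr17:35131816-35131845 on the minus strand, within the first exon and 5' UTR of the annotated transcript, whose start lies further upstream than that of RefSeq. That of Apoa2 is chr1:171224804-171225053 on the plus strand, and that of Apoa4 is chr9:46240594-46240695 on the plus strand, and both end at the base before the annotated gene.
Apom: tagcaggttaaaGGGTCAagggtcgaggcg
Apoa2: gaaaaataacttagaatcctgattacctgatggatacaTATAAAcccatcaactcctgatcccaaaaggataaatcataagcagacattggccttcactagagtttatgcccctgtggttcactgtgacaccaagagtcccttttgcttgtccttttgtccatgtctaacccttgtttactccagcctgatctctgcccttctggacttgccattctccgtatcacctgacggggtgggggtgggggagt
Apoa4: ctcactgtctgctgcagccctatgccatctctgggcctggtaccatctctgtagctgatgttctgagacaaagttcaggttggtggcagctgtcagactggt

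The Apom stretch holds 1 match to GGGTCA, the Apoa2 stretch 1 match to TATAAA, and the Apoa4 stretch none of the 5 motifs. The stretches shown are 30 nt for Apom, 250 nt for Apoa2 and 102 nt for Apoa4, so these counts do not compare like lengths. In the short stretch of Apom the match lies at the centre, so its presence there is no test. Over all RefSeq windows of the 8 genes, AGGTCA was found for 2 genes (Apoa2, in another window of that gene, and Apoh), GGGTCA for 3 (Apoa5, Apoe and Apom), GTTAAT for 1 (Apoe), CACGTG for 1 (Apoa5) and TATAAA for 4 (Apoa2, Apoa5, Apob and Apoe). Of the 32851 windows of all genes, 14.0% held AGGTCA, 11.6% GGGTCA, 6.43% GTTAAT, 6.02% CACGTG and 12.4% TATAAA. Those percentages are of single windows, while a gene was counted if any of its windows held a match. The 2 are therefore not on the same unit and cannot show an excess. These matches describe letters only and were not measured as binding.

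Apoa2 had the highest mean FPKM of the 10 genes. It lies on chromosome 1 (171225054 to 171226379, plus strand), has 4 listed transcripts, and codes for the second most abundant protein of HDL. Control mice had 1993 to 2911 FPKM (median 2765) and PZH mice 2752 to 3934 (median 3494). The groups overlapped, with 5 of 6 PZH mice above the control median and control 4 far below the other 5 control mice, which had at least 2661 FPKM. The mean was 2668 ± 347 for control mice and 3383 ± 450 for PZH mice (SD, n = 6 each). Apoa2 had a log2 fold change of 0.34 (SE 0.11) with an adjusted p of 0.0242 by limma, and the exact permutation test gave p = 0.0152. This call was lost without PZH 4 (adjusted p = 0.0531 by limma) or without PZH 6 (adjusted p = 0.0506 by limma), and was kept without any 1 of the other 10 mice.

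Apoa1, which codes for the main HDL protein and activates the enzyme Lcat, lies on chromosome 9 (46228580 to 46230466, plus strand). Its values were 1139 to 1876 FPKM in the control group (median 1482) and 1507 to 2091 FPKM in the PZH group (median 1902). All 6 PZH mice were above the control median and 3 were above every control mouse, but controls 1, 2 and 3 reached the PZH range. Apoa1 had a log2 fold change of 0.28 (SE 0.12) with an adjusted p of 0.0833 by limma, and the exact permutation test gave p = 0.0628. It passed with adjusted p below 0.05 once control 2 (0.0399), control 3 (0.0425) or PZH 4 (0.0470) was left out of the limma fit. Without any 1 of the other 9 mice it did not pass, and the lowest log2 fold change was 0.20 (adjusted p = 0.173 by limma), without control 4.

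Apoa4 was the member with the widest spread relative to its mean (coefficient of variation 35.6% in the control group and 29.3% in the PZH group). It lies on chromosome 9 (46240696 to 46243459, plus strand) with 1 listed transcript of 3 exons, and it codes for a protein of triglyceride-rich particles and HDL that the liver makes when it exports much triglyceride. Control mice had 185 to 397 FPKM (median 207) and PZH mice 110 to 258 FPKM (median 165). In the PZH group 5 of 6 mice were below every control mouse, and PZH 4 was the exception. The mean was 251 ± 89.5 for control mice and 170 ± 49.7 for PZH mice (SD, n = 6 each). The log2 fold change was -0.54 (SE 0.23) with an adjusted p of 0.0694 by limma and an exact permutation p of 0.0628. Without PZH 4 it was -0.67 with an adjusted p of 0.0268 by limma. Without control 4, which had the highest Apoa4 and the lowest share of Alb of the 12 mice, it was -0.40 (adjusted p = 0.144), and no other mouse left out gave a call.

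Apob lies on chromosome 12 (7977648 to 8016835, plus strand), and its main transcript Apob-202 (ENSMUST00000037811) has 29 exons. Control mice had 1207 to 1420 FPKM (median 1366), and PZH mice had 1282 to 1744 FPKM (median 1436). The groups overlapped over most of this range, and the PZH mice were spread more widely, with PZH 1 the highest of the 12. The log2 fold change of 0.13 (SE 0.08) did not pass (adjusted p = 0.244 by limma, exact permutation p = 0.154).

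Apoe, the ligand by which remnants are taken up, lies on chromosome 7 (19696109 to 19699188, minus strand). It had 1062 to 1410 FPKM in the control group (median 1160) and 1197 to 1435 FPKM in the PZH group (median 1290). All 6 PZH mice were above the control median, while control 3 was above all but 1 of the PZH mice. The log2 fold change was 0.13 (SE 0.08, adjusted p = 0.180 by limma, exact permutation p = 0.0952), and without control 3 it was 0.19 with an adjusted p of 0.0407 by limma. With any 1 of the other 11 mice left out it was 0.10 to 0.15 and did not pass. Apoe is also made by macrophages, and the share of its RNA from each cell type cannot be read from whole liver.

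Apoc1 lies beside Apoe on chromosome 7 (19689481 to 19692660, minus strand) and codes for a small protein that slows the removal of triglyceride-rich particles. Control mice had 515 to 705 FPKM (median 608) and PZH mice 604 to 801 FPKM (median 770). In the PZH group 5 of 6 mice lay between 759 and 801 FPKM, above every control mouse, and PZH 2 lay apart at 604 FPKM. The mean rose from 611 ± 72.8 to 749 ± 72.9 (SD, n = 6 each), a log2 fold change of 0.30 (SE 0.09) with an adjusted p of 0.0209 by limma and an exact permutation p of 0.0152. The call held without any 1 of the 12 mice.

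Apoc3 and Apoa5 lie near Apoa1 on chromosome 9 and are known to act in opposite ways on lipoprotein lipase, Apoc3 as an inhibitor and Apoa5 as an activator. Apoc3 (46232933 to 46235636, minus strand) had 467 to 806 FPKM in the control group (median 622) and 544 to 914 FPKM in the PZH group (median 695). The ranges overlapped widely, and the log2 fold change of 0.18 (SE 0.15) did not pass (adjusted p = 0.341 by limma, exact permutation p = 0.279). Apoa5 (46268633 to 46271919, plus strand) had 116 to 154 FPKM in the control group (median 123) and 113 to 175 FPKM in the PZH group (median 122). Its medians nearly coincided, its log2 fold change was 0.03 (SE 0.11, adjusted p = 0.842 by limma, exact permutation p = 0.807), and without PZH 1 it was -0.05.

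Apoh lies on chromosome 11, where its 1 listed transcript (ENSMUST00000000049) spans 108395293 to 108414396 on the plus strand with 8 exons. It had 705 to 844 FPKM in the control group (median 783) and 721 to 1173 FPKM in the PZH group (median 898). In the PZH group 4 mice were above every control mouse, PZH 1 was the highest of the 12, and PZH 2 and 4 were within the control range. Apoh had a log2 fold change of 0.23 (SE 0.10) with an adjusted p of 0.0771 by limma and an exact permutation p of 0.0433, and it passed in limma without PZH 2 (0.30, adjusted p = 0.0178). Without PZH 1 it was 0.16 (adjusted p = 0.132), and no other mouse left out gave a call.

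These calls depend on how the livers are put on 1 scale. FPKM values are shares of a library, and Alb, the gene of serum albumin, took 5.54% to 8.86% of the summed protein-coding FPKM in the control mice and 10.2% to 12.7% in the PZH mice. The 10 apolipoprotein genes together took 2.46% to 3.01% in the control group and 2.96% to 3.35% in the PZH group. When each mouse was divided by a median-ratio scale factor, the median log2 fold change of all genes moved from -0.11 to 0.00. The 10 members moved further in the same direction, as from 0.28 to 0.47 for Apoa1 and from 0.55 to 0.74 for Apom. Under this scaling 7 of the 10 genes were called higher and 0 lower, against 19.8% of all genes higher and 19.3% lower. Of the 515 genes at or above the level of Apom, 43.1% were called higher under it. The additional 4 were Apoa1 (log2 fold change 0.47, adjusted p = 0.0134), Apob (0.32, 0.0270), Apoe (0.33, 0.0125) and Apoh (0.43, 0.0129). Apoa4 (-0.35, adjusted p = 0.238), Apoa5 (0.22, 0.167) and Apoc3 (0.37, 0.0743) were not called under it. When each mouse was set to an equal sum of FPKM in place of this, the same 3 genes were called as on the deposited values, Apoa2 with a log2 fold change of 0.30 (adjusted p = 0.0246), Apoc1 with 0.25 (0.0328) and Apom with 0.51 (0.000257), while Apoa5 turned to -0.01.

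**Figure D2:**
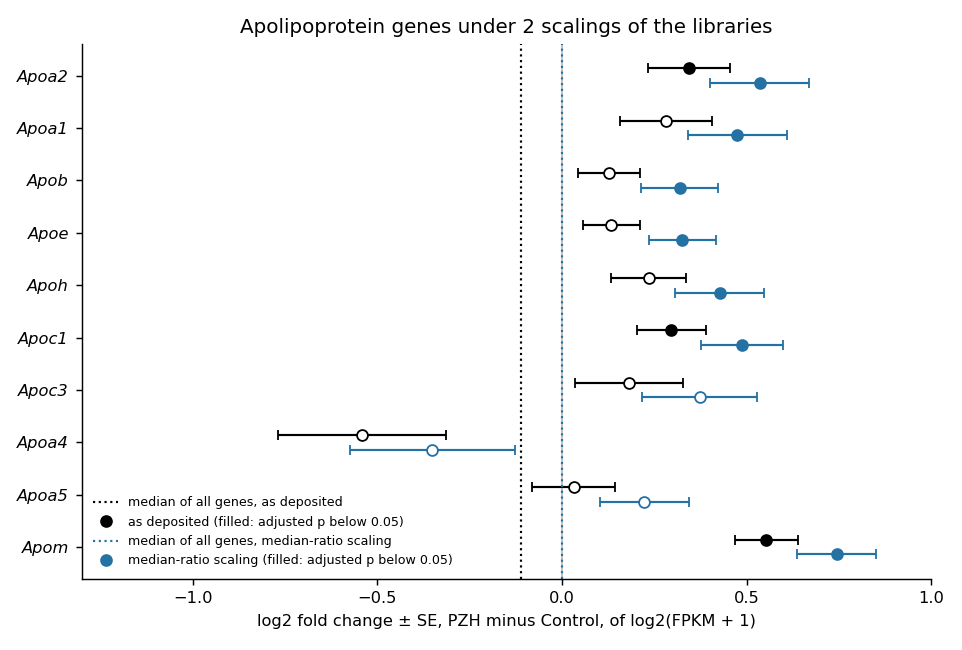
Log2 fold change of log2(FPKM + 1), PZH minus control, with its SE for the 10 genes (horizontal axis), from the deposited values in black and after median-ratio scaling in blue. Filled symbols have an adjusted p below 0.05 by limma, 3 on the deposited values and 7 after scaling, and dotted lines mark the median of all genes at -0.11 and 0.00.

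The ratio of 2 genes within a mouse does not depend on the scale of its library, so all 45 pairs of the 10 genes were compared as log2 ratios by exact permutation tests with adjustment over the 45 pairs. None passed by this test, although 15 had a p below 0.05 before adjustment, and the lowest adjusted p was 0.0584. That value was reached by Apom against Apoa5, Apob, Apoc1, Apoe and Apoh. The ratio of Apob to Apom was the 1 ratio without overlap, at 17.7 to 24.6 in the control group (median 20.01) and 14.0 to 16.9 in the PZH group (median 15.6). Its log2 ratio differed by -0.43 (exact permutation p = 0.0022 before adjustment). The largest difference was that of Apoa4 to Apom, at 2.62 to 6.63 in the control group (median 3.13) and 1.06 to 2.93 in the PZH group (median 1.66). That log2 ratio differed by -1.11 (exact permutation p = 0.00866, adjusted p = 0.0649). Without PZH 4, whose Apoa4 was the highest of its group, 12 of the 45 pairs passed.

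Within a mouse the 10 genes kept nearly the same order, from Apoa2 through Apoa1, Apob, Apoe, Apoh, Apoc1, Apoc3, Apoa4 and Apoa5 to Apom. FPKM is divided by transcript length, but other effects of a gene on its value were not tested, so this is an order of FPKM. The test below asks only whether the order repeats between mice. That order was itself set by the means of the same 12 mice, so the test is not independent of it. In a two-sided exact sign-flip permutation test over the 12 mice, 8 of the 9 neighbouring pairs differed with adjusted p at or below 0.00879. Apoa2 was above Apoa1 in 12 of 12 mice, by 1.78-fold on average, and Apoc3 was above Apoa4 in 12 of 12 mice by 3.27-fold. Apoc1 and Apoc3 were the exception, with Apoc1 higher in 8 of 12 mice and an exact sign-flip p of 0.523.

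Some of the separate transcripts passed on their own. Of the 32 transcripts, 30 had a mean of at least 1 FPKM. Apoa2-204 (log2 fold change 0.38, adjusted p = 0.0306), Apoc1-201 (0.30, 0.0492), Apoe-207 (0.54, 0.0132) and Apom-201 (0.55, 0.00105) were called higher by limma over the 29883 transcripts, and 0 were called lower (1 at an unadjusted p below 0.05, Apoa4-201), against 5.73% higher and 14.0% lower over all transcripts. Apoe-207 is a minor transcript of 4 exons, with 0.467 to 1.27 FPKM in the control group and 1.04 to 2.18 FPKM in the PZH group. The calls of Apom-201 and Apoe-207 held with any 1 mouse left out. That of Apoa2-204 was lost in 5 of 12 such fits (without control 1 or PZH 1, 3, 4 or 6, adjusted p up to 0.0679 by limma), and that of Apoc1-201 in 9 of 12 (all but those without control 2, control 5 or PZH 2, up to 0.0997). Apoc1-201 was also not called at an equal sum (0.0666), with a mean-variance trend (0.0542) or with a pseudocount of 0.1 (0.112), the last of which also left Apoa2-204 at 0.0675.

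The share of a transcript in its gene also does not depend on library scale. None of the 27 shares that could be tested was called at an adjusted p below 0.05 by limma on percent. There were 0 also at an unadjusted p below 0.05, and 0.756% of 8065 shares in the table were called. The SE in this fit is drawn toward that of all tested shares, and was 0.709 percentage points for Apoa1-202. A change in a transcript with a share near 1% could therefore hardly be called by it. In exact permutation tests 6 shares had a p below 0.05 before adjustment, and those of the 2 Apoa1 transcripts were separated by group. Apoa1-202 (ENSMUST00000132155), a shorter transcript of 602 nt in 3 exons, took 1.19% to 1.43% of Apoa1 in the control group (median 1.31%) and 0.806% to 1.005% in the PZH group (median 0.839%). All 6 PZH mice were below all 6 control mice (exact permutation p = 0.0022 before adjustment, the smallest it can give). In the fit on percent the adjusted p was 0.859, and on the log2 ratio of transcript to gene the difference was -0.56 with an adjusted p of 0.00456 by limma. The median share of Apoa2-201 was 46.8% among control mice and 45.6% among PZH mice (exact permutation p = 0.00649 before adjustment), and that of Apoa2-204 was 49.1% and 50.2% (exact permutation p = 0.0108), and neither was called after adjustment.

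In 4 genes the share of a transcript differed widely between mice of the same group. Apob-203, a transcript of 5 exons at the 3' end of Apob, took 8.43% to 9.02% of the gene in PZH 2, 4 and 5 and 8.94% in control 2, and 0.664% to 0.768% in the other 8 mice. Apob-201 took 2.101% to 3.58% in the same 4 mice and under 0.01% in the other 8. Apoc3-202 took 20.99% to 31.9% of Apoc3 in PZH 4 and 5 and controls 2, 4, 5 and 6, and 0.968% to 1.48% in the other 6. Apoa5-201 took 68.3% of Apoa5 in PZH 1 and 0.689% to 1.58% in the other 11 mice, and Apoa5-202 took 27.5% there and 83.3% to 88.4% in the other 11 (exact permutation p = 0.0108 before adjustment). Apoe-209 took 55.9% of Apoe in control 3 and 41.0% in PZH 1, and no more than 17.0% elsewhere. StringTie estimated the split of reads over overlapping transcripts in each liver separately, and whether these differences are in the RNA or in that estimate was not tested. Sums over a gene contain all of these transcripts.

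**Figure D3:**
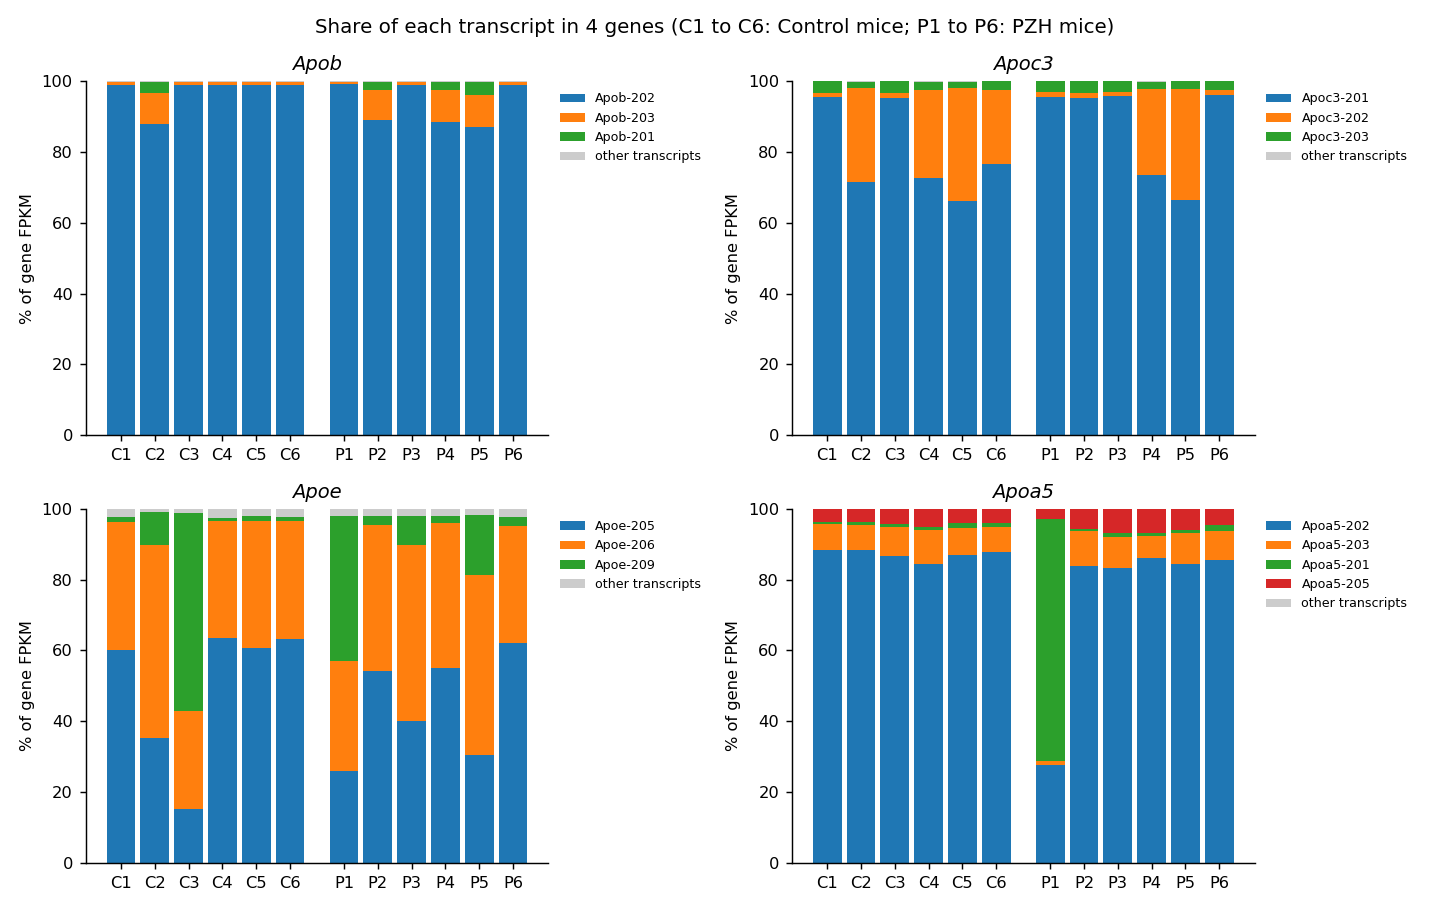
Share of each transcript in the summed FPKM of its gene (vertical axis, percent) for Apob, Apoc3, Apoe and Apoa5 in 6 control mice (C1 to C6) and 6 PZH mice (P1 to P6). Shares differ between mice of 1 group, as for Apoc3-202 at 20.99% to 31.9% in 6 of the 12 mice, and Apoa5-201 is the main transcript in P1 alone at 68.3%.

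Apoa1, Apoc3, Apoa4, Apoa5, Apoc1 and Apoe lie in 2 gene clusters whose genes did not all move alike. In the cluster of chromosome 9, the order along the chromosome is Apoa1, Apoc3, Apoa4 and Apoa5, with log2 fold changes of 0.28, 0.18, -0.54 and 0.03, and none of the 4 passed. In the cluster of chromosome 7, the log2 fold changes were 1.26 for Apoc2, 0.31 for Apoc4, 0.30 for Apoc1 and 0.13 for Apoe, and all but Apoe passed. Against 12.7% of all genes called higher and 32.1% lower, 2 of 14 measured genes that flank the members were called higher and 7 lower. Their median log2 fold change was -0.24. They include Tomm40, a pore of the mitochondrial outer membrane beside Apoe (-0.54, adjusted p = 0.000245 by limma), and Nr1i3, the nuclear receptor CAR beside Apoa2 (1.15, 0.00278). On the Apoa1 side Pafah1b2 (-0.54, 0.000144) and Cep164 (-0.52, 0.00359) were lower, with midpoints at -241 kb and -431 kb from the start of Apoa1. Sik3, nearer to Apoa1 at -110 kb, was not called (-0.13, 0.391). Under median-ratio scaling 2 of the 14 were called higher and 4 lower, against 19.8% and 19.3% of all genes.

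**Figure D4:**
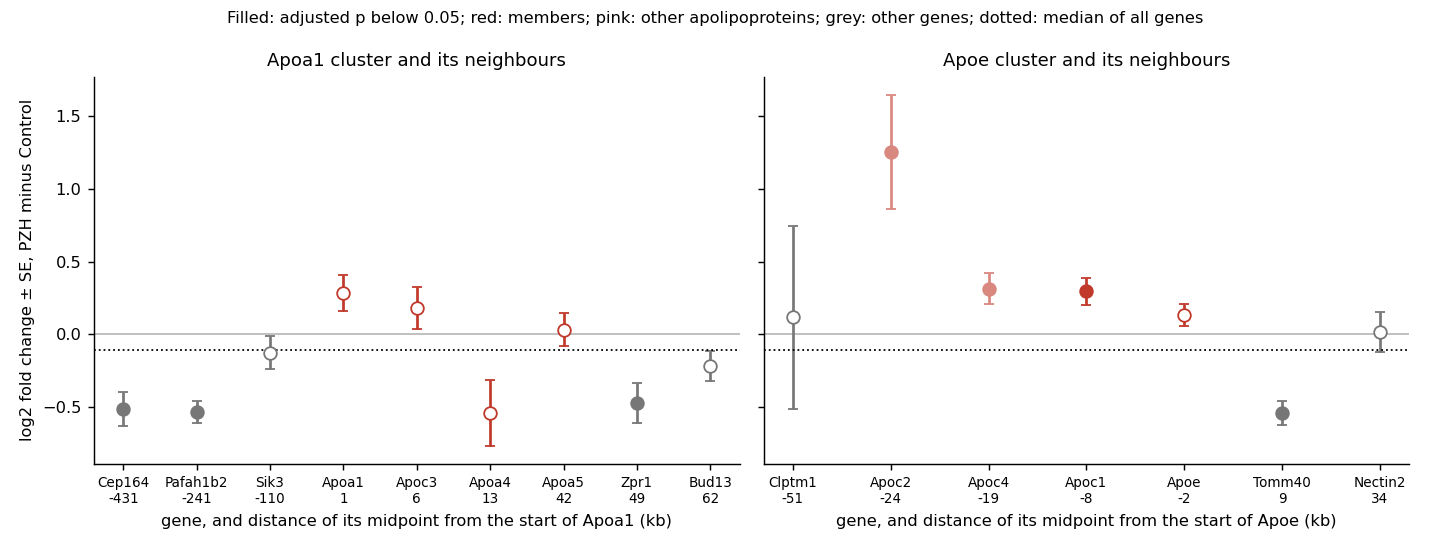
Log2 fold change (PZH minus control, vertical axis) with its SE of the genes of 2 apolipoprotein clusters and their neighbours, in chromosome order with even spacing, so that only the distance in kb under each name is to scale. Apoc2, Apoc4 and Apoc1 are filled (adjusted p below 0.05 by limma), from 0.30 to 1.26, while their neighbour Tomm40 is at -0.54, and the 4 genes of the Apoa1 cluster are open symbols.

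A long noncoding transcript near Apob differed strongly. Gm48633 (ENSMUST00000218264, chromosome 12, 7911889 to 7950061, minus strand, 2 exons) lies 27587 nt from Apob. It had 1.02 to 5.67 FPKM in the control group (median 2.31) and 12.3 to 19.8 FPKM in the PZH group (median 14.9), without overlap, as for 7.47% of lncRNA transcripts in the same direction. The log2 fold change was 2.15 (SE 0.28, adjusted p = 0.000233 by limma over the 1432 lncRNA transcripts, of which 12.2% were called higher and 8.38% lower), next to 0.13 for Apob. The other lncRNA transcript within 50 kb of a member, Gm17705 near Apom, had a log2 fold change of 0.10 (adjusted p = 0.279 by limma).

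Of the other apolipoproteins, 13 of 16 listed genes were in the table. Of these 3 were called higher and 0 lower, against 12.7% and 32.1% of all genes. Apol7a, of the apolipoprotein L family, had 3.35 to 15.2 FPKM in the control group and 20.4 to 54.0 FPKM in the PZH group. Its log2 fold change was 2.099 (adjusted p = 0.000227 by limma). Apoc2, the cofactor that lipoprotein lipase needs, had 25.5 to 75.4 FPKM in the control group and 53.1 to 247 FPKM in the PZH group (log2 fold change 1.26, SE 0.39, adjusted p = 0.0197). Apoc4 had 433 to 607 FPKM and 513 to 783 FPKM (0.31, adjusted p = 0.0285), and its call was lost when any 1 of 6 mice was left out (controls 1, 3 and 4 and PZH 1, 4 and 6). Apoc2 and Apoc4 are annotated as overlapping loci and the L genes are close copies of each other, so how the reads were shared out within either group is uncertain. Not called were Apof (0.13), Apon (0.13), Apoo (0.27), Apool (0.03), Clu (-0.27), Apol9a (-0.30), Apol9b (-0.02), Apol7c (-0.01), Apol10b (-0.15) and Apol11b (-0.06), and Apof, Apon and Apoo were called higher under median-ratio scaling.

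The serum amyloid A proteins are HDL apolipoproteins of the acute phase. Saa1 had 16.8 to 893 FPKM in the control group (median 120) and 10.6 to 34.8 FPKM in the PZH group (median 18.8), and fell by 2.47 on the log2 scale (SE 0.73, adjusted p = 0.0145 by limma). Saa2 had 6.61 to 494 FPKM and 3.08 to 10.2 FPKM, and fell by 2.73 (SE 0.80, adjusted p = 0.0145). The control mice spread widely, with control 4 the highest for both, and overlapped the PZH mice, and the near-identical sequence of Saa1 and Saa2 makes their separate values uncertain. Saa3 (-1.06, adjusted p = 0.102) and Saa4 (0.54, adjusted p = 0.102) did not pass. Saa4 was called higher under median-ratio scaling (0.73, adjusted p = 0.0326 by limma) and without control 4 (0.75, adjusted p = 0.00753).

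For the assembly and secretion of Apob particles, 4 of 16 genes were called higher and 4 lower, against 12.7% and 32.1% of all genes. The counts were 5 and 1 under median-ratio scaling, against 19.8% and 19.3% of all genes. Sar1b, the small GTPase of the vesicles that carry them (log2 fold change 0.75, adjusted p = 0.00102 by limma), Cideb, which helps to load them with lipid (0.74, 0.000405), and A1cf, the partner of the enzyme that edits Apob RNA (0.64, 0.000166), were higher, and Surf4, a cargo receptor, was lower (-0.55, 0.000231). Mttp, which loads lipid onto Apob and is named after its values were seen, had 57.6 to 68.6 FPKM in the control group and 83.1 to 102 FPKM in the PZH group (0.53, adjusted p = 9.99e-05), while Apob itself did not pass.

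Of 16 receptors and adaptors, 2 were called higher and 4 lower, against 12.7% and 32.1% of all genes. The counts were 5 and 2 under median-ratio scaling, against 19.8% and 19.3% of all genes. Lrp10, a lipoprotein receptor-related protein, fell by 0.79 (adjusted p = 0.000577 by limma), and its call held under median-ratio scaling (0.00228).

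Of 12 genes that form and remodel HDL, 4 were called higher and 1 lower, against 12.7% and 32.1% of all genes. The counts were 5 and 0 under median-ratio scaling, against 19.8% and 19.3% of all genes. Pon1, an esterase carried by HDL, rose by 0.72 (adjusted p = 0.00414 by limma), Gpld1, a phospholipase carried by HDL, by 0.45 (0.00245) and the sterol exporter Abcg1 by 0.33 (0.0338), a call that was lost when any 1 of 7 mice was left out (controls 1, 2, 4 and 6 and PZH 2, 3 and 5). Abca1, which loads lipid onto Apoa1, fell by 0.31 (0.0193), with no call under median-ratio scaling (-0.12, 0.306).

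Of 12 lipases and their regulators, 2 were called higher and 1 lower, against 12.7% and 32.1% of all genes. The counts were 3 and 0 under median-ratio scaling, against 19.8% and 19.3% of all genes. Lipg, a lipase that acts on HDL, rose by 0.96 on the log2 scale from a mean of 1.14 FPKM (adjusted p = 0.000768 by limma), and Pcsk6 fell by 0.39 (0.0149) without a call under median-ratio scaling (0.134).

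Of 30 transcription factors known to act on apolipoprotein genes, 12 were called higher and 6 lower, against 12.7% and 32.1% of all genes. The counts were 14 and 4 under median-ratio scaling, against 19.8% and 19.3% of all genes. Mlxipl, the carbohydrate response factor (log2 fold change 1.12, adjusted p = 0.000417 by limma), rose, and Foxa3 (-1.27, 3.87e-05) and Cebpb (-1.20, 0.000311), both liver factors, fell. Named after their values were seen, the nuclear receptors Nr1h4 (0.98, 8.97e-05) and Ppara (0.92, 0.000534) rose, and Hnf4a fell by 0.30 (0.00937) without a call under median-ratio scaling (0.250).

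**Figure D5:**
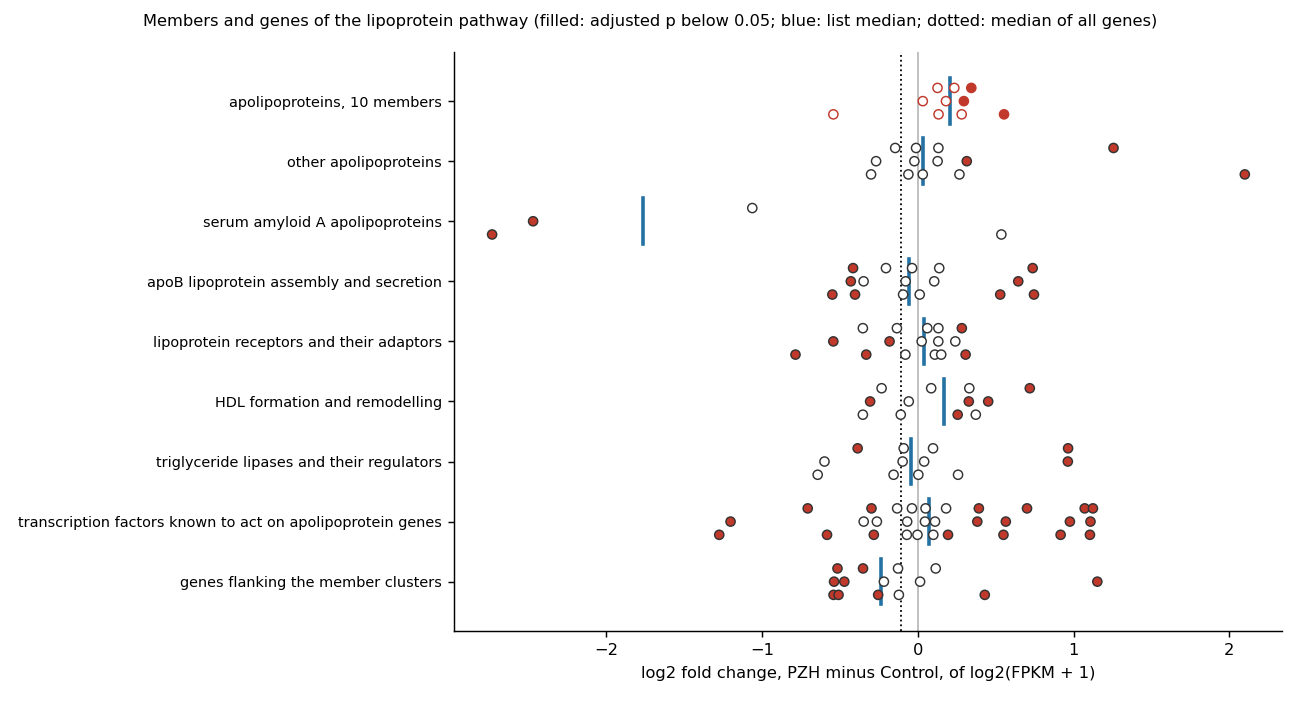
Log2 fold change (PZH minus control, horizontal axis) of each gene of the 10 members and of 8 lists of related genes, with filled symbols for an adjusted p below 0.05 by limma and a blue bar at the list median. The members' median is 0.21, the serum amyloid A median is -1.77, and the dotted line marks the median of all genes at -0.11.

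Some markers of several cell types differed between the groups, where 12.7% of all genes were called higher and 32.1% lower. In whole liver, fewer cells of a type and less RNA per cell cannot be told apart. Of 10 hepatocyte markers 5 were called higher and 1 lower, with a summed level of 33658 to 46937 FPKM in the control group and 50958 to 66135 FPKM in the PZH group, and none was at 0 in any mouse. Alb made up most of that sum, and the other 9 markers summed to 15642 to 19350 FPKM in the control group and 17598 to 20176 FPKM in the PZH group, which overlapped. Fgb, a fibrinogen chain, was the 1 that fell, from a mean of 2086 to 914 FPKM. Of 8 Kupffer cell markers 3 were higher and 1 lower (210 to 285 FPKM against 234 to 341 FPKM), of 8 markers of monocyte-derived macrophages 2 were higher and 3 lower, and of 8 stellate cell and myofibroblast markers 1 was higher and 2 lower. Of 8 endothelial markers 0 were higher and 2 lower, of 6 cholangiocyte markers 0 and 2, of 6 lymphocyte markers 0 and 0, and of 5 erythroid markers 1 and 0. Of 4 measured markers of pancreas, gut and fat none was called (15.04 to 29.9 FPKM summed in the PZH group and 15.2 to 28.2 in the control group). All these counts are on the deposited values, and they change under median-ratio scaling, where 19.8% of all genes were called higher and 19.3% lower. Under it the endothelial markers Kdr (adjusted p = 0.00406 by limma) and Oit3 (0.0214) were called higher. So were the lymphocyte markers Ms4a1 (0.0325) and Cd79b (0.0477), and Cela2a (0.0395) of the pancreas. The lower calls of Ly6c2 (0.0661), Itgam (0.0985) and Pecam1 (0.202) were lost. The part of these marker differences in the apolipoprotein values was not tested.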

How the data were processed

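The authors trimmed strand-specific, rRNA-depleted reads with Trimmomatic, mapped them with HISAT2 to GRCm38 and assembled transcripts with StringTie, and deposited the FPKM of 29883 protein-coding and 1432 lncRNA transcripts in each mouse. FPKM are not counts. Whole reads could not be recovered from low values (tolerance 0.05), the files state no depth, and no counting interval is given. Precision is the spread between 6 mice per group, which the labels name as separate samples. The labels give no batch, and no 2 mice held identical values.

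Transcripts were assigned to genes by GENCODE M21 (29876 matched) and summed. limma 3.58.1 in R 4.3.3 was fitted to log2(FPKM + 1) over whole tables without a filter or covariate, with Benjamini-Hochberg adjustment. Single values were compared by two-sided exact permutation over all labellings of the 12 mice. Other values and plots came from Python 3.11.15 (matplotlib 3.10.9, scipy 1.17.1, numpy 2.4.6, pandas 2.3.3). The fit was tested on simulated data. Alternatives were 2 other scalings, a filter at a mean FPKM of 1, a pseudocount of 0.1, a mean-variance trend, no moderation, the highest transcript of each gene alone, a replicate block, the criteria of the study, and each mouse left out. The members and lists were chosen with earlier results of these data known. All members were named, together with each of their transcripts of at least 1 FPKM, lncRNA transcripts within 50 kb, all other apolipoproteins and serum amyloid A genes, and in each other list up to 4 called genes with the largest change. Some genes that this rule gave are not reported here.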

Additional observations from a re-analysis of the deposited data

Results flagged for a closer look

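In groups of 6 mice, the highest or lowest mouse was set apart where its gap to the nearest other mouse exceeded Dixon's 95% critical value for the range of the group. This was tested in 80 groups of values of the members and their transcripts, 13 were set apart, and chance sets apart about 1 in 20.

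Apoa2 and Apoc1 were among them, each for 1 mouse that was lower than its group. Apoa2 had 1993 FPKM in control 4, against 2661 to 2911 FPKM in the other 5 control mice. The same mouse was low in the transcripts Apoa2-204, at 988 FPKM, and Apoa2-203, at 63.3 FPKM. Apoc1 had 604 FPKM in PZH 2, against 759 to 801 FPKM in the other 5 PZH mice, and its transcript Apoc1-201 had 562 FPKM there.

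The remaining 8 were single transcripts whose share of the gene differed in that mouse. Apoa5-201 had 119 FPKM and Apoa5-202 had 48.1 FPKM in PZH 1, against 0.894 to 1.84 FPKM and 97.0 to 122 FPKM in the other 5 PZH mice. In control 2, Apob-201 had 35.2 FPKM, Apob-203 had 108 FPKM and Apoe-206 had 579 FPKM, against at most 0.132, 10.9 and 429 FPKM in the other control mice. In control 3, Apoe-209 had 788 FPKM and Apoe-210 had 6.32 FPKM, against at most 98.8 and 2.12 FPKM in the other control mice. In PZH 1, Apoe-209 had 542 FPKM, against 29.8 to 203 FPKM in the other PZH mice.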

How the results depend on the processing

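Apom was called higher in 22 of 22 settings, Apoc1 in 21 and Apoa2 in 18. Apoa1 was called higher in 5, Apoh in 3, Apoe in 2, Apob in 1, and Apoa5 and Apoc3 in 0, while Apoa4 was called lower in 2. The 22 settings include the 2 chosen after seeing the data, and equal sums without Alb gave a call of Apoh (adjusted p = 0.0361 by limma). Median-ratio scaling gave 7 genes and 12 transcripts of the members called higher, 13 listed pathway genes called lower, and 2807 genes higher and 2739 lower over the table (1798 and 4560 on the deposited values). The 2-fold criteria gave 0 members, a pseudocount of 0.1 gave 2 transcripts higher, and the log2 ratio gave 1 isoform share (Apoa1-202). A mean-variance trend left Apoa2 with an adjusted p of 0.0571 by limma. Leaving out 1 mouse at a time gave 2 to 5 members called higher (5 without control 3), 0 to 1 lower (1 without PZH 4, Apoa4), 2 to 5 transcripts higher and 0 to 12 ratios (12 without PZH 4).

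Mice with the same number were not paired, since the correlations of their deviations were -0.0732 to 0.0763 and 1 of the 6 PZH mice correlated best with the control mouse of its own number. With the mouse number as a replicate block, Apom and Apoa1 were called higher and Apoa4 lower (1 gene and 1 transcript lower), 2 transcripts were higher, and Apoa2 and Apoc1 had adjusted p of 0.0554 and 0.0668 by limma.

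Signs turned only where no call was made, among the results and settings run. At an equal sum Apoa5 was -0.011 and Apool -0.0087, the highest transcript of Apoa5 alone gave -0.28, and under median-ratio scaling Apol7c was 0.021 and Apol9b 0.16. With 1 mouse left out, log2 fold changes ranged from -0.051 to 0.086 for Apoa5, -0.41 to 0.048 for Apoa5-203, -0.016 to 1.18 for Apoa5-201, -0.19 to 0.197 for Apoe-205, -0.82 to 0.24 for Apoe-201, -0.057 to 0.067 for Apool, -0.051 to 0.026 for Apol7c and -0.27 to 0.11 for Apol9b. The causes of these changes were not tested. Equal sums without Alb or without the 13 mitochondrially encoded genes, 2 settings chosen after seeing the data, gave 4 and 3 members called higher. The files state no depth, so no limit from counting can be given.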
